A study of Mus musculus with 15 samples.

Results

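The measurements concern 10 mouse genes that control oxidative metabolism in heart muscle: the nuclear receptors Ppara, Ppard, Esrra, Esrrb, Esrrg, Rxra and Thra, and the coactivators Ppargc1a, Ppargc1b and Perm1. They were taken by name from a table of 9666 genes, and all 10 were found there. The cells were isolated cardiomyocytes of the ventricles, from C57BL/6 mice of wild-type genotype, and their RNA was sequenced in 15 libraries: 4 from postnatal day 1 (P1), 4 from postnatal day 3 (P3) and 7 from adults of 8 to 12 weeks. Neither an engineered allele nor a treatment is given for any group, and the labels do not say whether each library came from its own animal, so the p-values below measure the spread between libraries, which may be technical. The series was designed to look for mediators of heart muscle regeneration, and stage was the only factor in its labels.

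In newborn heart muscle, energy comes largely from glucose and lactate. After birth the cells turn to fatty acid oxidation, build dense mitochondria and leave the cell cycle. The receptors of the PPAR family are activated by fatty acids and bind DNA as partners of RXR. The estrogen-related receptors (ERRs) have no known natural hormone and act on genes of the respiratory chain, the citric acid cycle and fatty acid oxidation. PGC-1 proteins bind these receptors and raise their activity, and PERM1 is a muscle protein induced by PGC-1 and ERR that acts on the same genes. Thyroid hormone, through its receptors, drives many of the changes of the heart around birth.

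The values are RPKM as the authors deposited them, that is read numbers divided by gene length in kilobases and by library size in units of 1e+06 reads, and were tested as log2(RPKM + 0.5) with limma over 9389 genes. A gene was called higher or lower when its Benjamini-Hochberg adjusted p over all genes tested was under 0.05 and its log2 difference was at least 1 in size. All 10 genes passed the filter of at least 1 RPKM in at least 4 libraries. Esrrb reached that level in 8 libraries, 7 of them adult, so it passed the filter through the adult group. The recovered reads behind these values ran from 6 for Esrrb in 1 P3 library to 3477 for Ppargc1a in 1 adult library, and were not recovered for Thra.

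The labelled cell type was checked against markers before the genes were compared. All 10 cardiomyocyte markers (Myh6, Tnnt2, Tnni3, Actc1, Myl2, Ttn, Ryr2, Pln, Actn2 and Mybpc3) were in the table, and their summed RPKM ran from 5052 to 12292 in P1, from 591 to 5097 in P3 and from 15123 to 28839 in adult libraries. The P3 libraries fell apart: replicate 1 had 5097, and replicates 2, 3 and 4 had 1120, 643 and 591. Of 12 endothelial markers 10 were in the table, with sums of 214 to 488 in P1, 719 to 1686 in P3 and 2.91 to 219 in adult libraries. The 4 fibroblast markers in the table, of 9 listed, summed to 158 to 1331 in P1, with the highest value in replicate 1, 367 to 791 in P3 and 0.917 to 68.5 in adult libraries. The 4 mural markers of 8 listed summed to 121 to 513 in P1, 437 to 720 in P3 and 31.8 to 120 in adult libraries. The immune and erythroid lists had 0 genes in the table, which holds only genes above 0.1 RPKM in every library, and of 6 adipocyte markers Fabp4 alone was there (126 to 383 RPKM in P1, 449 to 1220 in P3 and 6.37 to 1065 in adult libraries). Of the libraries labelled as P3 cardiomyocytes, replicates 2 to 4 were thus lower in the cardiomyocyte sum than every other library, and all 4 were higher in the endothelial sum than every P1 and adult library. In bulk samples fewer cells of a type and less RNA per cell cannot be told apart. The part of these markers in the differences between stages was not tested.

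Adult libraries had more Ppara, Esrrb and Perm1 RNA than P1 libraries, and more Ppara, Esrrb, Esrrg, Ppargc1a and Perm1 RNA than P3 libraries. These are differences between libraries, and P3 replicates 2 to 4 were low in cardiomyocyte markers. Relative to those markers, log2 differences from P3 were −0.20 for Ppara, −0.49 for Esrrb, −1.98 for Esrrg, −1.84 for Ppargc1a and 0.63 for Perm1. On the deposited scale Perm1 showed the largest log2 difference of the 10 against P1 and against P3. Its adult mean was 4.64-fold that of P1 and 13.2-fold that of P3. None of the 10 was called lower in adult libraries, although 62.7% of all genes tested were lower than in P1 and 62.7% lower than in P3. Called higher in adult libraries were 3 of the 10 against P1, where the share over all genes was 4.32%, and 5 of the 10 against P3, where it was 9.16%. Both counts include Esrrb, which passed the filter through the adult group. The comparisons with P1 and P3 share the adult libraries, so they are not separate evidence. Adult libraries did not overlap P1 libraries for 1 of the 10, Perm1, where 70% of all genes did not overlap in either direction, and did not overlap P3 libraries for 3, Ppara, Esrrb and Perm1, where 72.3% did not. P3 libraries had less Esrra, Esrrg and Perm1 than P1 libraries, 3 of 10 called lower where 5.31% of all genes were, and 0 of 10 were called higher where 1.4% were; by the exact permutation test none of the 10 differed between P3 and P1 beyond the smallest p that 4 against 4 libraries allow, 0.0286, which Rxra alone reached.

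The median gene stood at −1.36 on the log2 scale in adult against P1 libraries, −1.48 in adult against P3 and 0.09 in P3 against P1, so differences near 0 against either neonatal group stood above that of the median gene. With each library centred on its median gene, a setting chosen after seeing the data, all 10 differences against P1 and against P3 were positive. Of all 9389 genes tested, 5026 were positive against P1 and 4892 against P3. Centred on the median gene, 7 of the 10 were called higher in adult than in P1 libraries and 8 higher than in P3, where the shares over all genes were 21.8% and 27.2%, and 0 were called lower, where 13.5% and 18.9% were. In P3 against P1, 4 were then called lower, Ppargc1b being added to Esrra, Esrrg and Perm1, against 7.53% of all genes, and 0 were called higher, against 1.19%. With libraries scaled to an equal sum of RPKM, the differences of Esrrg and Ppargc1b against P1 stayed negative (−0.32 and −0.27), as did those of Ppard and Rxra against P3 (−0.43 and −0.18). Ppara, Esrrb and Perm1 were called higher against P1 and P3 under the 5 scalings that use all or most genes of a library (quantile, median of ratios, equal sum with and without the 100 highest genes, and the library median). Esrrb passed the filter through the adult group, so its calls, also within the counts of 7 and 8, are given as a description.

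**Figure D1:**
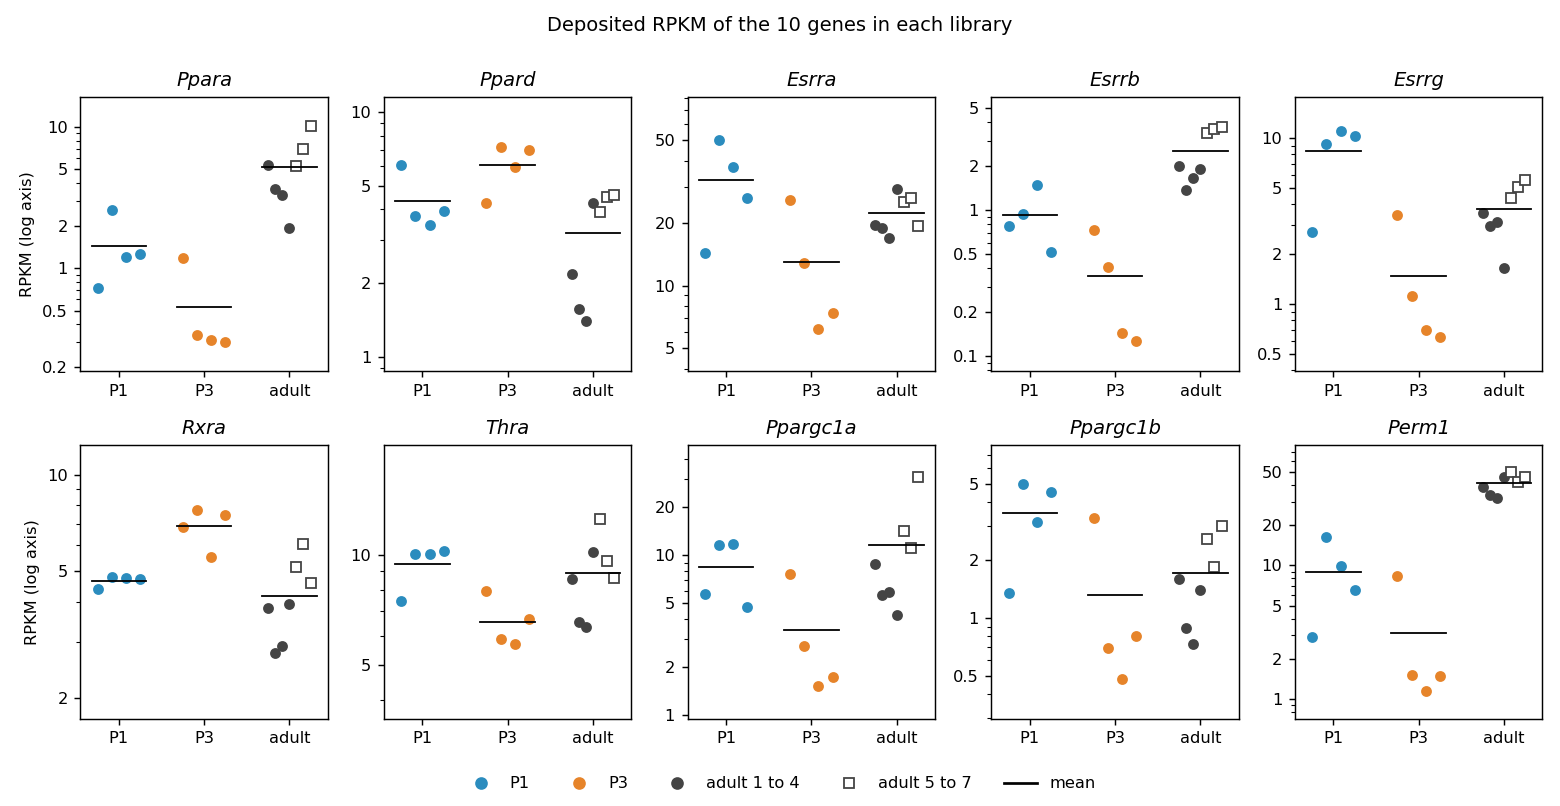
RPKM of each of the 10 genes in every library on a log axis, by stage, with the group mean as a bar; open squares are adult replicates 5 to 7. Adult libraries lie above every P1 and P3 library for Perm1, P3 replicates 2 to 4 lie low for most genes, and P3 replicate 1 often lies among the P1 libraries.

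Perm1 (chr4:156215868-156221307 on mm10, plus strand) measured 2.92, 16.2, 9.83 and 6.52 RPKM in the P1 libraries, 8.29, 1.51, 1.146 and 1.498 RPKM in the P3 libraries, and 31.9 to 49.96 RPKM with a median of 42.0 RPKM in the adult libraries. Every adult library lay above every neonatal one. Adult libraries averaged 41.2 ± 6.67 RPKM (SD, n = 7), against 8.88 ± 5.66 RPKM in P1 (SD, n = 4), a log2 difference of 2.36 ± 0.41 (SE, adjusted p = 3.0e-05). Against the P3 mean of 3.11 ± 3.46 RPKM the log2 difference was 3.90 ± 0.41 (adjusted p = 4.8e-08). P3 minus P1 was −1.54 ± 0.46 (adjusted p = 0.043), but P3 replicate 1 lay within the P1 range, and the call was lost in 6 of the 8 fits that left out 1 neonatal library, with differences between −2.10 and −1.19.

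The stretch before the start of Perm1 held 1 copy of AAGGTCA, the extended half-site that single ERR molecules bind, and 1 of the RefSeq windows of Rxra held the shorter half-site AGGTCA on both strands. These are printed because they were the only windows of the 10 genes with either motif, out of 13 windows for 8 genes; Thra and Ppargc1b had no entry. Sequences are from RefSeq on GRCm38.p6, plus strand, with motif copies on either strand in capitals; the Perm1 stretch stops where the GENCODE exon begins.
Perm1, chr4:156215677-156215867: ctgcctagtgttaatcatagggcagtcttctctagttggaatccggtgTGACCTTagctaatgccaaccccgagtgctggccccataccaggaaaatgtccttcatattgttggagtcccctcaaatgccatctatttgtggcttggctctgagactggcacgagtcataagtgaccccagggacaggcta
Rxra, chr2:27709042-27709291: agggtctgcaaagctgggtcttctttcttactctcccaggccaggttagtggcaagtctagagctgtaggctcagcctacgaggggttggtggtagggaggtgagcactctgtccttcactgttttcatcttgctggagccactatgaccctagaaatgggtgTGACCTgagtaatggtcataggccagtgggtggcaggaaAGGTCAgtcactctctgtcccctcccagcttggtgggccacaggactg

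The Perm1 copy lay on the opposite strand, 202 to 196 bases before the RefSeq start, and the same-strand copy of Rxra, 48 to 43 bases before its start, was also an AAGGTCA. On both strands together, AGGTCA was in 14.02% of all 32851 windows of 250 bases before a start and AAGGTCA in 4.08%. The full ERR element TCAAGGTCA (0.387% of windows), the direct repeat of AGGTCA with 1 base between the copies, DR1, which PPAR binds with RXR (0.0335%), and that with 4 bases between, DR4, which thyroid hormone receptors bind (0.0152%), were in 0 of the 13 windows. The NRF1 palindrome was in 0.782% of windows and in a window of Ppara. A match is a match of letters, not a bound site.

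Ppara (chr15:85734983-85802819, plus strand) encodes the PPAR that turns on fatty acid uptake and oxidation in heart and liver. It measured 0.720, 2.58, 1.21 and 1.25 RPKM in P1 libraries, 1.17, 0.337, 0.309 and 0.298 RPKM in P3 libraries, and 1.93 to 10.1 RPKM with a median of 5.28 RPKM in adult libraries. Adult libraries all lay above the P3 libraries, whereas the lowest adult library lay below P1 replicate 2. Mean RPKM was 5.23 ± 2.72 in adult libraries (SD, n = 7), 9.89-fold the P3 mean of 0.529 ± 0.429 (SD, n = 4), with a log2 difference of 2.41 ± 0.34 (SE, adjusted p = 2.4e-06). The P1 mean was 1.44 ± 0.799 RPKM, and adult minus P1 was 1.51 ± 0.34 (adjusted p = 0.00048). P3 minus P1 was −0.91 ± 0.38 (adjusted p = 0.13) and was not called.

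Ppard (chr17:28232700-28301474, plus strand) encodes the broadly expressed PPAR that also acts on fatty acid oxidation genes in muscle. It measured 6.09, 3.77, 3.46 and 3.95 RPKM in P1, 4.25, 7.19, 5.96 and 7.00 RPKM in P3, and 1.396 to 4.56 RPKM with a median of 3.89 RPKM in adult libraries. The 3 groups overlapped, and P3 replicates 2 and 4, which were low in cardiomyocyte markers, were the highest. Adult libraries averaged 3.19 ± 1.42 RPKM (SD, n = 7) and differed from P3 (6.10 ± 1.35 RPKM, n = 4) by −0.92 ± 0.28 on the log2 scale (adjusted p = 0.0057), short of the fold threshold. The difference from P1 (4.32 ± 1.20 RPKM) was −0.46 ± 0.28 (adjusted p = 0.14), and P3 minus P1 was 0.46 ± 0.32 (adjusted p = 0.37). Relative to the median gene Ppard stood higher in adult than in P1 and P3 libraries, by 1.00 and 0.63, neither called.

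A ratio of 2 genes within a library is the same under any scaling of that library, but it can differ with cell content. The ratio of Ppara to Ppard was 0.452 to 2.45 in adult libraries, against 0.118 to 0.685 in P1 and 0.0426 to 0.276 in P3. In 6 of the 7 adult libraries Ppara exceeded Ppard, and in all 8 neonatal libraries Ppard exceeded Ppara; adult replicate 4 had 0.452. The log2 ratio was 2.39 ± 0.62 higher in adult than in P1 libraries (exact two-sided permutation p = 0.0061, 0.013 adjusted over 24 ratio tests) and 4.47 ± 0.72 higher than in P3 (exact p = 0.00303, the smallest possible, adjusted 0.0081). In P3 against P1 it was −2.07 ± 0.83 (exact p = 0.057). Relative to the cardiomyocyte markers, adult minus P3 was −0.20 for Ppara and −4.67 for Ppard, and adult minus P1 was 0.75 and −1.64. The part of cell content in this ratio was not tested.

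Esrra (chr19:6910977-6921813, minus strand), the most abundant ERR in these cells and a main partner of PGC-1, measured 14.4, 50.4, 37.1 and 26.5 RPKM in P1, 25.8, 12.9, 6.23 and 7.40 RPKM in P3, and 17.0 to 29.2 RPKM with a median of 19.7 RPKM in adult libraries. The adult libraries lay inside the P1 range and overlapped P3 only through P3 replicate 1. Adult libraries averaged 22.3 ± 4.61 RPKM (SD, n = 7), against 32.1 ± 15.3 RPKM in P1 and 13.1 ± 8.98 RPKM in P3 (SD, n = 4 each). Adult minus P1 was −0.40 ± 0.34 (adjusted p = 0.28) and adult minus P3 0.94 ± 0.34 (adjusted p = 0.016), neither called. Without P3 replicate 1 the second was 1.33 and was called. P3 minus P1 was −1.34 ± 0.38 (adjusted p = 0.038) and was called lower, a call lost in 6 of 8 fits that left out 1 library (−1.73 to −1.08). Esrra overlaps the neighbouring gene Trmt112 by 73 bases on the opposite strand, and the strand of counting is not given in the sources used here.

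Esrrb (chr12:86361117-86521628, plus strand), the ERR known mainly from stem cells and placenta, had the lowest mean of the 10 genes in P1 and in P3 libraries. It measured 0.782, 0.944, 1.48 and 0.519 RPKM in P1, 0.732, 0.412, 0.144 and 0.127 RPKM in P3, and 1.39 to 3.72 RPKM with a median of 2.03 RPKM in adult libraries. The adult libraries all lay above P3, and all but 1 of them above P1 replicate 3. Adult libraries averaged 2.53 ± 0.996 RPKM (SD, n = 7), against 0.933 ± 0.408 RPKM in P1 and 0.354 ± 0.284 RPKM in P3 (SD, n = 4 each). Esrrb passed the filter through the adult group, so its adult calls are given as a description. Adult minus P3 was 1.82 ± 0.26 (adjusted p = 3.2e-06). Adult minus P1 was 1.05 ± 0.26 (adjusted p = 0.0011), close to the fold threshold, and fell under it in 4 of 11 fits that left out 1 library: without adult replicate 5, 6 or 7 or without P1 replicate 4 (0.98, 0.97, 0.96 and 0.90). P3 minus P1 was −0.76 ± 0.30 (adjusted p = 0.10), from 6 to 46 reads per P3 library.

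Esrrg (chr1:187608791-188214885, plus strand), the ERR needed for the switch to oxidative metabolism in the heart of newborn mice, had its highest mean in P1 libraries on the deposited scale. It measured 2.73, 9.23, 11.1 and 10.3 RPKM in P1, 3.43, 1.12, 0.700 and 0.629 RPKM in P3, and 1.66 to 5.57 RPKM with a median of 3.52 RPKM in adult libraries. P1 replicates 2 to 4 exceeded every adult library, while P1 replicate 1, which had the highest fibroblast marker sum, lay among the adults. Adult libraries averaged 3.77 ± 1.35 RPKM (SD, n = 7), against 8.35 ± 3.82 RPKM in P1 and 1.47 ± 1.32 RPKM in P3 (SD, n = 4 each). Adult minus P1 was −0.96 ± 0.38 (adjusted p = 0.025), just short of the fold threshold, and was −1.396 and called lower without P1 replicate 1. Adult minus P3 was 1.25 ± 0.38 (adjusted p = 0.0051), called higher. P3 minus P1 was −2.21 ± 0.43 (adjusted p = 0.0084), the largest difference of the 10 between these groups, and was called in all 8 fits that left out 1 library.

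The ERR genes also differed in their proportions. The ratio of Esrra to Esrrb was 5.21 to 15.1 in adult libraries, against 18.4 to 53.4 in P1 and 31.3 to 58.4 in P3, without overlap (log2 differences −1.85 ± 0.43 and −2.14 ± 0.28, exact p = 0.00303 each, adjusted 0.0081). This ratio carries the Esrrb difference above and is likewise a description. The ratio of Esrra to Esrrg was 7.53 to 11.7 in P3 libraries, against 2.56 to 5.46 in P1, without overlap (1.30 ± 0.31, exact p = 0.0286, the smallest possible, adjusted 0.046). In adult libraries it was 3.48 to 17.6 and overlapped both (exact p = 0.15 against P1 and 0.12 against P3), with adult replicate 4 alone above 6.36. Without that library the difference from P3 was −0.91 (exact p = 0.0048).

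**Figure D2:**
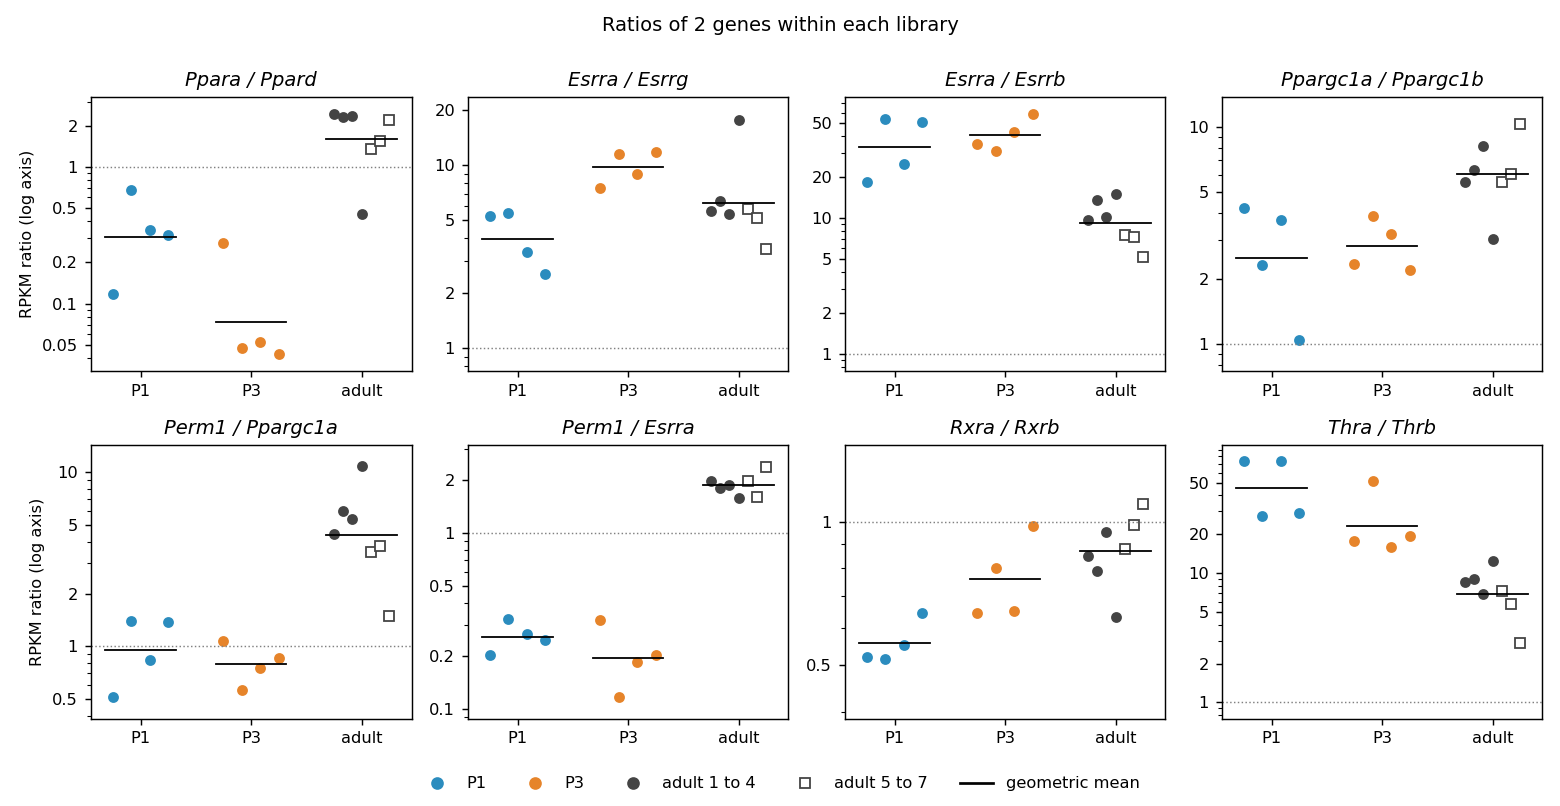
Ratio of 2 genes' RPKM within each library on a log axis, for 8 pairs, by stage, with the geometric mean as a bar and a dotted line at 1. Adult libraries lie above 1 for Perm1 to Esrra and all neonatal libraries lie below 1, without overlap.

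Rxra (chr2:27676440-27762957, plus strand), the common partner of PPAR and thyroid hormone receptors, was the steadiest gene of the set within P1. It measured 4.39, 4.77, 4.76 and 4.70 RPKM in P1, 6.86, 7.75, 5.50 and 7.46 RPKM in P3, and 2.76 to 6.05 RPKM with a median of 3.93 RPKM in adult libraries. Every P3 library lay above every P1 library, the only gene of the 10 whose P3 and P1 libraries did not overlap, where 13.2% of all genes did not. The limma difference P3 minus P1 was 0.51 ± 0.22 (adjusted p = 0.14, exact p = 0.0286). Adult libraries averaged 4.17 ± 1.18 RPKM (SD, n = 7), against 4.65 ± 0.182 RPKM in P1 and 6.89 ± 0.998 RPKM in P3 (SD, n = 4 each). Adult minus P1 was −0.18 ± 0.19 (adjusted p = 0.39) and adult minus P3 −0.69 ± 0.19 (adjusted p = 0.0027), which was under the fold threshold. The endothelial marker sum was also higher in every P3 library than in every P1 library, and the fibroblast sum than in P1 replicates 2 to 4. Their part in the P3 level of Rxra was not tested.

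The related receptor Rxrb averaged 4.78 ± 1.30 RPKM in adult libraries, against 8.40 ± 0.822 RPKM in P1 and 9.10 ± 1.33 RPKM in P3, and its differences of −0.79 and −0.89 were under the fold threshold. The ratio of Rxra to Rxrb was 0.633 to 1.09 in adult libraries, against 0.516 to 0.645 in P1 (log2 difference 0.65 ± 0.12, exact p = 0.0061, adjusted 0.013) and 0.646 to 0.980 in P3 (0.20 ± 0.17, exact p = 0.25). The P3 ratios lay above the P1 ratios, at 0.646 against 0.645 for the nearest libraries (0.45 ± 0.16, exact p = 0.0286, adjusted 0.046), and the difference missed the threshold in 6 of 8 tests that left out 1 library (0.32 to 0.52).

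Thra (chr11:98740638-98769006, plus strand), the main thyroid hormone receptor gene of the heart, was not called in any comparison on the deposited scale. It measured 7.47, 10.01, 10.05 and 10.2 RPKM in P1, 7.93, 5.86, 5.69 and 6.66 RPKM in P3, and 6.33 to 12.496 RPKM with a median of 8.60 RPKM in adult libraries. All 3 groups overlapped. Adult libraries averaged 8.90 ± 2.14 RPKM (SD, n = 7), against 9.44 ± 1.31 RPKM in P1 and 6.54 ± 1.023 RPKM in P3 (SD, n = 4 each). Adult minus P1 was −0.10 ± 0.19 (adjusted p = 0.62), adult minus P3 0.40 ± 0.19 (adjusted p = 0.060) and P3 minus P1 −0.50 ± 0.22 (adjusted p = 0.14). Relative to the median gene the differences from P1 and P3 were 1.36 and 1.95 and both were called. Thra overlaps Nr1d1 by 1075 bases on the opposite strand, and reads from the pair may not be separated.

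Thrb, the second thyroid hormone receptor gene, averaged 1.41 ± 0.799 RPKM in adult libraries, against 0.238 ± 0.138 RPKM in P1 and 0.315 ± 0.143 RPKM in P3. It was called higher in adult libraries against both, by 1.30 ± 0.25 (adjusted p = 8.4e-05) and 1.15 ± 0.25 (adjusted p = 0.00026), and the groups did not overlap. It reached 1 RPKM in 4 libraries, all adult, so it passed the filter through the group where it was high, and these calls are given as a description. The ratio of Thra to Thrb was 2.89 to 12.3 in adult libraries, against 27.7 to 73.9 in P1 and 16.1 to 51.9 in P3 (log2 differences −2.72 ± 0.47 and −1.74 ± 0.46, exact p = 0.00303 each, adjusted 0.0081). The ratio of Thra to Thrb carries the Thrb difference above and is likewise a description. It was highest in P1 replicates 1 and 3 and P3 replicate 2. There Thrb measured 0.102, 0.136 and 0.113 RPKM, close to the 0.1 RPKM that every value in the table exceeds. With a pseudocount of 0.5 on both genes the log2 differences were −1.40 against P1 and −0.76 against P3. Thra remained the more abundant of the pair in all 15 libraries.

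Ppargc1a (chr5:51454250-51567726, minus strand) encodes PGC-1α, which is induced by cold, exercise and fasting and drives the building of mitochondria. It measured 5.70, 11.5, 11.7 and 4.73 RPKM in P1, 7.68, 2.69, 1.53 and 1.75 RPKM in P3, and 4.23 to 30.8 RPKM with a median of 8.81 RPKM in adult libraries. Adult and P1 libraries overlapped over most of their range, and P3 overlapped the adults through replicate 1. Adult libraries averaged 11.5 ± 9.16 RPKM (SD, n = 7), against 8.43 ± 3.73 RPKM in P1 and 3.41 ± 2.89 RPKM in P3 (SD, n = 4 each). Adult minus P3 was 1.59 ± 0.46 (adjusted p = 0.0034), called higher, and adult minus P1 was 0.25 ± 0.46 (adjusted p = 0.61). P3 minus P1 was −1.33 ± 0.51 (adjusted p = 0.10), not called, and −1.77 and called without P3 replicate 1.

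Ppargc1b, which encodes the related PGC-1β and lies on chromosome 18, measured 1.35, 4.98, 3.17 and 4.54 RPKM in P1, 3.30, 0.694, 0.477 and 0.800 RPKM in P3, and 0.726 to 3.00 RPKM with a median of 1.59 RPKM in adult libraries. P1 replicates 2 to 4 exceeded every adult library, as they did for Esrrg. Adult libraries averaged 1.72 ± 0.836 RPKM (SD, n = 7), against 3.51 ± 1.63 RPKM in P1 and 1.32 ± 1.33 RPKM in P3 (SD, n = 4 each). Adult minus P1 was −0.83 ± 0.37 (adjusted p = 0.046), under the fold threshold, and −1.16 and called lower without P1 replicate 1. Adult minus P3 was 0.43 ± 0.37 (adjusted p = 0.29) and P3 minus P1 −1.26 ± 0.42 (adjusted p = 0.063).

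The proportions of the coactivators differed between stages. The ratio of Ppargc1a to Ppargc1b was 3.03 to 10.3 in adult libraries, against 1.04 to 4.21 in P1 (1.29 ± 0.50, exact p = 0.0091, adjusted 0.018) and 2.18 to 3.88 in P3 (1.11 ± 0.28, exact p = 0.012, adjusted 0.022), with overlap in both. The ratio of Perm1 to Ppargc1a was 1.49 to 10.8 in adult libraries, against 0.512 to 1.41 in P1 and 0.562 to 1.08 in P3, without overlap (2.19 ± 0.48 and 2.46 ± 0.38, exact p = 0.00303 each, adjusted 0.0081). The ratio of Perm1 to Esrra had the tightest adult range, 1.57 to 2.37, against 0.203 to 0.322 in P1 and 0.118 to 0.321 in P3 (2.86 ± 0.16 and 3.26 ± 0.31, exact p = 0.00303 each, adjusted 0.0081).

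**Figure D3:**
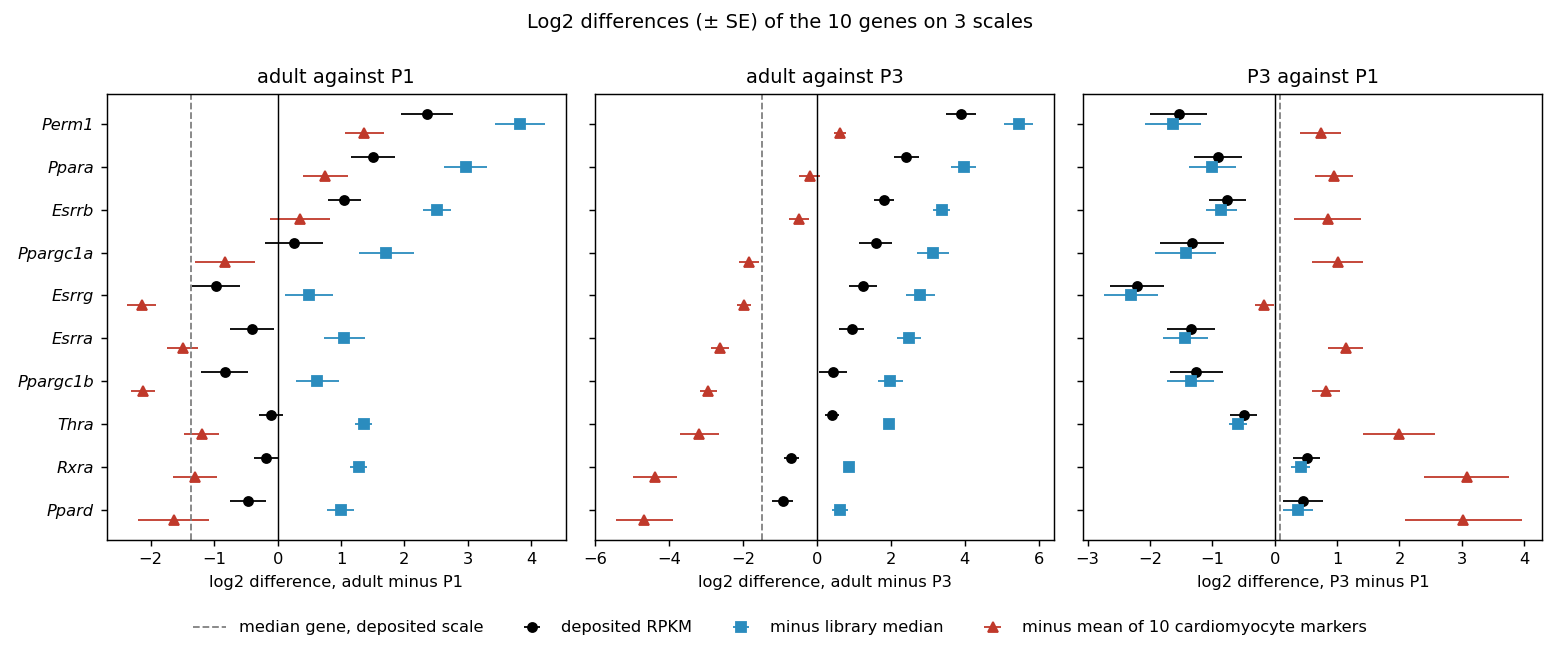
Log2 differences with standard errors for the 10 genes in 3 comparisons, on the deposited scale (circles), minus the library median (squares) and minus the mean of the 10 cardiomyocyte markers (triangles); the dashed line is the median gene on the deposited scale. Against P1 and P3 every square lies right of 0, and Perm1 is the only gene whose triangle lies right of 0 in both with groups that do not overlap.

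The mean log2 RPKM of the cardiomyocyte markers differed by 1.09 in adult against P1 libraries, by 3.61 in adult against P3 and by −2.52 in P3 against P1. Of the 10 genes, 4 differed in the same direction as the markers in adult against P1 libraries, and 8 in adult against P3 and in P3 against P1. Of all 9389 genes tested, 1281 were positive like the markers in adult against P1 and 1792 in adult against P3. In P3 against P1, where the markers were negative, 5360 were positive. Each gene was also expressed relative to those 10 markers in its own library, a measure added after the data were seen and given without a test. On this scale Perm1 was higher in adult than in P1 libraries by 1.36 ± 0.31, at −4.38 to −3.79, against −6.03 to −4.64. It was also higher than in P3 libraries by 0.63 ± 0.17, where the range was −5.00 to −4.41. Genes that were higher in this way without overlap made up 1.3% of all genes against P1 and 0.447% against P3. Of the 10 genes, Perm1 alone was among them; Ppara differed by 0.75 ± 0.35 and −0.20 ± 0.28, and Esrrb by 0.35 ± 0.47 and −0.49 ± 0.27, with overlap in each case. Without overlap, 6 of the 10 were lower against P1 (83.6% of all genes were) and 7 of the 10 against P3 (94.5%). In P3 against P1 Esrrg was nearly level with the markers, at −0.17 ± 0.15, while 5 of the 10 were higher relative to them without overlap (32.1% of all genes were) and 0 were lower (0.0639%), and Ppard and Rxra stood 3.03 ± 0.93 and 3.08 ± 0.68 higher relative to them.

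**Figure D4:**
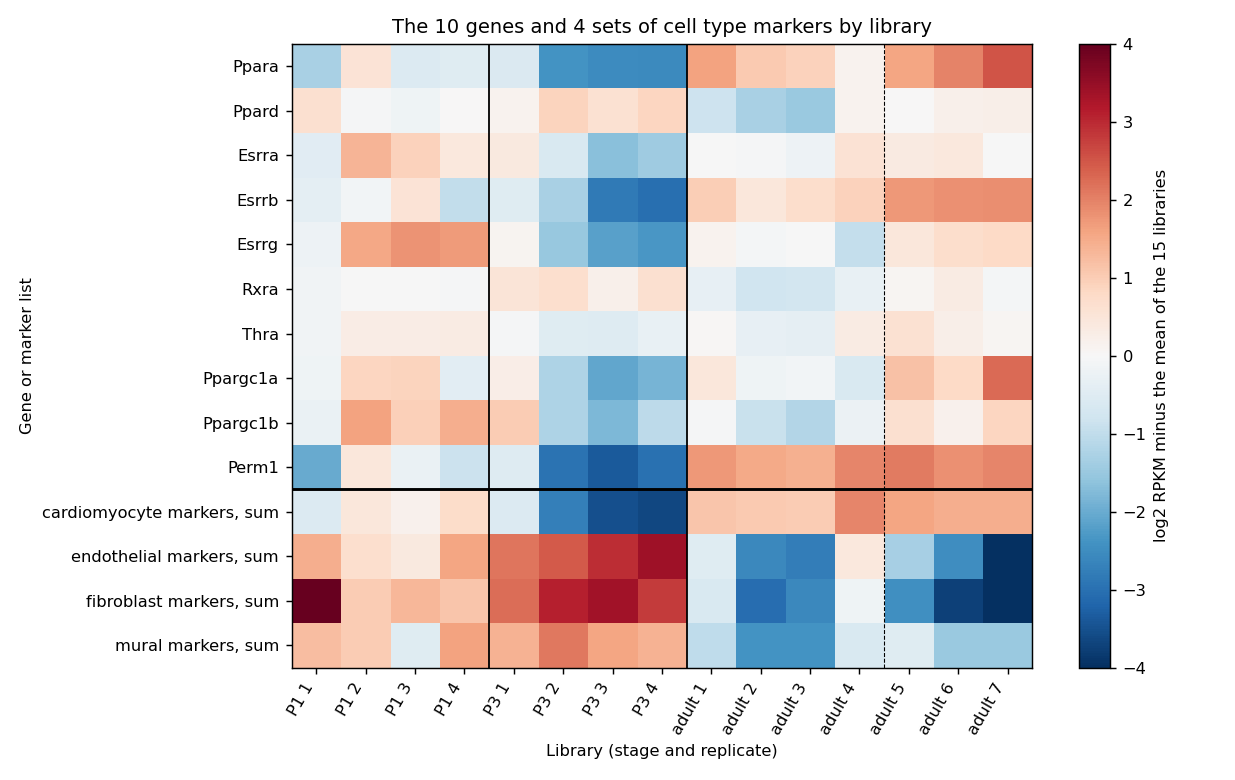
Log2 RPKM of each of the 10 genes and of the summed markers of 4 cell types in every library, minus the mean over the 15 libraries; colours end at −4 and 4, and the dashed line separates adult replicates 1 to 4 from 5 to 7. P3 replicates 2 to 4 are low for the cardiomyocyte sum, for Perm1 and for Esrrg, and high for the endothelial and fibroblast sums.

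The 7 adult libraries were themselves of 2 kinds in depth, 0.366 to 0.646 of adult replicate 5 in replicates 1 to 4 and 0.978 to 1 in replicates 5 to 7; the labels name no batch. Replicates 5 to 7 exceeded replicates 1 to 4 without overlap for Esrrb, Esrrg, Rxra, Ppargc1a and Ppargc1b, 5 of the 10, where 23.7% of all genes did. For Ppargc1a they had 11.1 to 30.8 RPKM, against 4.23 to 8.81 RPKM, means 3.04-fold apart, and without replicate 7 adult minus P1 was −0.02. Perm1 was called higher in adult libraries with either kind alone, by 2.23 and 2.53 against P1 and 3.77 and 4.07 against P3, with replicates 1 to 4 given before 5 to 7. Ppara was too, by 1.08 and 2.08 against P1 and 1.99 and 2.99 against P3. Esrrb against P1 was 0.68 and not called with replicates 1 to 4, and 1.55 and called with replicates 5 to 7. Against P3, Esrrg was 0.92 (adjusted p = 0.060) and 1.68, and Ppargc1a 0.97 (adjusted p = 0.038) and 2.41, called with replicates 5 to 7 only. Adult minus P1 for Ppargc1a was −0.36 and 1.08, so its sign depended on the adult libraries used.

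Levels of different genes were set side by side because RPKM is per length, but the annotation behind the lengths and the counting strand are not given. Thra overlaps Nr1d1 and Esrra overlaps Trmt112 on the opposite strand, so the order below is a description. In P1 libraries Esrra was the most abundant of the 10 and did not overlap the next, Thra, whereas each later neighbour in the order overlapped: Thra, Perm1, Ppargc1a, Esrrg, Rxra, Ppard, Ppargc1b, Ppara and Esrrb. In P3 the order was Esrra, Rxra, Thra, Ppard, Ppargc1a, Perm1, Esrrg, Ppargc1b, Ppara and Esrrb, and every neighbour overlapped the next. In adult libraries Perm1 led, above Esrra without overlap, followed by Ppargc1a, Thra, Ppara, Rxra, Esrrg, Ppard, Esrrb and Ppargc1b, each overlapping its neighbour. Perm1 stood in the third place at P1, the sixth at P3 and the first in adult libraries.

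Genes on which these receptors act were read from lists compiled from general knowledge. Of 30 PPAR target genes tested (34 listed), 15 were called higher and 3 lower in adult against P1 libraries, with a median log2 difference of 1.017, where the median over all genes was −1.36 and 4.32% were higher and 62.7% lower. Against P3, 23 were higher and 3 lower with a median of 2.31 (9.16% and 62.7% of all genes), and in P3 against P1 0 were higher and 10 lower with a median of −1.11 (1.4% and 5.31%). After centring, 26 were higher and 0 lower against P1 (21.8% and 13.5% of all genes), and likewise against P3 (27.2% and 18.9%). In P3 against P1, 0 were then higher and 18 lower (1.19% and 7.53%). In adult against P1, adult against P3 and P3 against P1 the cardiomyocyte markers differed by 1.09, 3.61 and −2.52. Their part in these counts was not tested. The 3 genes lower against P1 and P3 on the deposited scale, named after their values were seen, were Cpt1a (−1.98 and −1.89), Angptl4 (−1.50 and −2.41) and Plin2 (−1.13 and −1.79). The fatty acid transporter Cd36 averaged 221 ± 21.0 RPKM in adult libraries, against 45.2 ± 18.8 RPKM in P1 (2.39 ± 0.28, adjusted p = 2.9e-07). The medium-chain dehydrogenase Acadm averaged 324 ± 47.1 RPKM in adult libraries, against 76.2 ± 28.2 RPKM in P1 and 29.9 ± 29.3 RPKM in P3 (2.17 and 3.80, adjusted p = 3.7e-05 and 2.7e-08). Cpt1b, another gene of this list, averaged 18.8 ± 22.5 RPKM in P3 libraries, against 73.4 ± 38.9 RPKM in P1 (−2.35 ± 0.57, adjusted p = 0.021), and the cardiomyocyte marker sum was lower in the same P3 libraries.

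All 30 ERR and PGC-1 target genes were tested, and 0 were called lower in adult libraries, where 62.7% of all genes were lower than in P1 and 62.7% lower than in P3. Against P1, 11 were higher (median 0.65, with 4.32% of all genes higher), and against P3, 28 were higher (median 1.86, with 9.16%), while 17 were lower in P3 than in P1 (median −1.30, with 5.31% lower). The cardiomyocyte markers differed by 1.09, 3.61 and −2.52 in the same comparisons, and their part in these counts was not tested. Fndc5, a muscle membrane protein gene, averaged 76.1 ± 18.7 RPKM in adult libraries, against 3.53 ± 1.76 RPKM in P1 (4.31 ± 0.37, adjusted p = 7.0e-09). Cox7a1, a respiratory chain subunit of muscle, averaged 1190 ± 612 RPKM in adult libraries, against 43.8 ± 50.2 RPKM in P3 (5.36 ± 0.52, adjusted p = 1.6e-08). The adenine nucleotide carrier Slc25a4 averaged 426 ± 384 RPKM in P3 libraries, against 1195 ± 378 RPKM in P1 (−1.78 ± 0.47, adjusted p = 0.027). Relative to the median gene, 29 and 30 of the 30 were higher in adult than in P1 and P3 libraries, beside 21.8% and 27.2% of all genes. In each, 0 were lower, beside 13.5% and 18.9%.

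Of 20 other regulators of mitochondrial biogenesis tested, 0 were called higher and 11 lower in adult against P1 libraries (median −1.27), and 4 higher and 11 lower against P3 (median −1.34), beside medians of −1.36 and −1.48 and 62.7% lower in each over all genes. After centring, 5 were higher and 4 lower against P1, beside 21.8% and 13.5% of all genes. Against P3, 8 were then higher and 8 lower, beside 27.2% and 18.9%. Pprc1, the third member of the PGC-1 family, averaged 0.775 ± 0.264 RPKM in adult libraries, against 14.7 ± 3.46 RPKM in P1 and 21.1 ± 5.45 RPKM in P3. Its log2 differences were −3.58 ± 0.21 and −4.08 ± 0.21 (adjusted p = 1.5e-10 and 2.3e-11), and it remained called lower after centring (−2.12 and −2.53). With an adult mean under 1 RPKM, Pprc1 passed the filter through the neonatal libraries, where it was high. Its calls are given as a description. The energy sensor subunit Prkaa1 averaged 1.46 ± 0.352 RPKM in adult libraries, against 12.0 ± 1.12 RPKM in P1 (−2.69 ± 0.17, adjusted p = 3.0e-10), and the cofactor Hcfc1 2.50 ± 1.14 RPKM, against 17.7 ± 3.15 RPKM in P1 (−2.69 ± 0.26, adjusted p = 2.6e-08). In P3 against P1, 4 were lower, beside 5.31% of all genes. Among them was Prkaa2, at 4.92 ± 4.54 RPKM in P3, against 18.9 ± 10.6 RPKM in P1 (−1.87 ± 0.53, adjusted p = 0.037).

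Of the general nuclear receptor coactivators, 15 of 16 listed were tested; 1 was called higher and 12 lower in adult against P1 libraries (median −1.70), and 1 higher and 11 lower against P3 (median −1.92), where 62.7% of all genes were lower in each. The gene higher in both, named after its values were seen, was Lpin1, whose product works with PGC-1α and PPARα in liver. Prmt1, an arginine methyltransferase, averaged 13.0 ± 3.51 RPKM in adult libraries, against 122 ± 18.1 RPKM in P1 (−3.20 ± 0.21, adjusted p = 3.8e-10). Ep300, a histone acetyltransferase, averaged 1.81 ± 1.07 RPKM in adult libraries, against 13.2 ± 2.86 RPKM in P3 (−2.67 ± 0.30, adjusted p = 1.1e-07). After centring, 2 coactivators were higher and 1 lower against P1 (21.8% and 13.5% of all genes), and 2 higher and 3 lower against P3 (27.2% and 18.9%). Of 8 corepressors tested (9 listed), 5 were lower against P1, near the 62.7% of all genes, and 6 against P3, beside the same share. After centring, 1 was lower in each, beside 13.5% and 18.9% of all genes. That gene in both was Tbl1x, at 2.72 ± 0.600 RPKM in adult libraries, against 21.2 ± 6.18 RPKM in P1 and 23.4 ± 5.23 RPKM in P3 (−2.73 and −2.89, adjusted p = 2.7e-09 and 6.9e-10).

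Of 17 other nuclear receptors tested (34 listed), 1 was called higher and 6 lower in adult against P1 libraries (median −0.90), and 2 higher and 10 lower against P3 (median −1.15). Of all genes, 4.32% were higher against P1 and 9.16% against P3, and 62.7% were lower in each. After centring, 5 were higher and 1 lower against P1 (21.8% and 13.5% of all genes), and 4 higher and 1 lower against P3 (27.2% and 18.9%). Thrb, described above, was called higher against both. Rara, the retinoic acid receptor, averaged 0.556 ± 0.228 RPKM in adult libraries, against 5.15 ± 0.626 RPKM in P1 and 5.42 ± 0.900 RPKM in P3 (−2.44 and −2.50, adjusted p = 1.4e-09 and 5.0e-10). Rara passed the filter through the neonatal libraries, where it was high, so its calls are given as a description. The glucocorticoid receptor Nr3c1 averaged 4.70 ± 0.893 RPKM in adult libraries, against 18.3 ± 1.23 RPKM in P1 (−1.87 ± 0.16, adjusted p = 8.4e-09). After centring neither was called, at −0.98 and −0.95 for Rara and −0.41 for Nr3c1 against P1.

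Of the genes that thyroid hormone induces in the heart, 13 were listed and 8 tested, among them the cardiomyocyte markers Myh6 and Ryr2. Higher in adult libraries were 6 of 8 against P1 with 1 lower (median 1.62) and 6 of 8 against P3 (median 3.76), and 6 of 8 were lower in P3 than in P1 (median −1.50), beside 4.32%, 9.16% and 5.31% of all genes. The cardiomyocyte markers differed in the same directions, and their part was not tested. The glucose transporter Slc2a4 averaged 55.7 ± 18.4 RPKM in adult libraries, against 8.05 ± 3.82 RPKM in P1 (2.76 ± 0.38, adjusted p = 2.1e-06). Of the 5 genes listed as repressed by the hormone, 1 was higher and 2 lower against P1 (median −0.58), 2 higher and 0 lower against P3 (median 1.05), and 3 were lower in P3 than in P1 (median −1.62). Of all genes, 62.7% were lower against P1 and against P3, with medians of −1.36 and −1.48, so the list medians stood above the median gene. In P3 against P1 5.31% of all genes were lower, with a median of 0.09. Myh7, the fetal myosin heavy chain, averaged 8.39 ± 7.62 RPKM in adult libraries, against 20.05 ± 8.54 RPKM in P1 (−1.58 ± 0.52, adjusted p = 0.0097), and after centring was −0.12 and not called. Of 8 genes of hormone transport, conversion and binding, 2 were in the table, and Thrb was the one called.

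**Figure D5:**
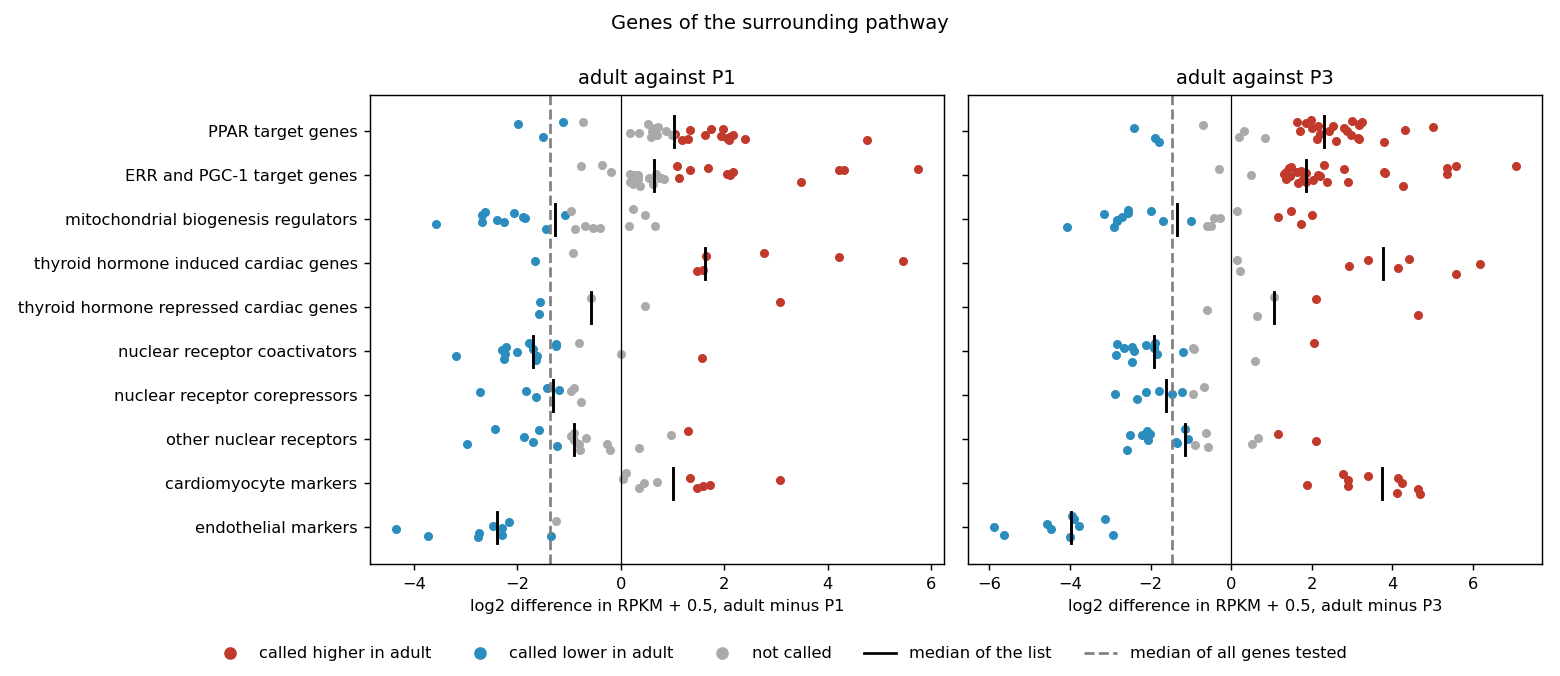
Log2 differences of every tested gene of 10 lists in adult against P1 and adult against P3 libraries; red is called higher in adult, blue called lower, grey not called, the black bar is the list's median and the dashed line the median of all genes tested. The medians of the PPAR and ERR target lists lie right of 0, those of the coactivator, corepressor and biogenesis lists lie near the dashed line, and the cardiomyocyte and endothelial markers lie on opposite sides of 0.

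The genes whose pattern over the 15 libraries was most like each of the 10 were ranked by Pearson correlation of log2 values centred on the library median. These are descriptions over libraries that share stage and cell content, with no test. The library median was lower in adult than in neonatal libraries. Subtracting it raised every gene in adult relative to neonatal libraries, which adds a shared pattern to r. Perm1 was most like Etfdh, Taco1 and Isca1 (r = 0.998, 0.997 and 0.996), which encode an electron transfer dehydrogenase, an activator of cytochrome oxidase translation and an iron-sulfur assembly factor, all mitochondrial. Esrra was most like Letm1, Kcng2 and Mrpl15 (0.988, 0.988 and 0.987), and Thra like Spg7, Pccb and Akr1b10 (0.991 each). For Ppara the nearest were Ank2, Corin and Ppfibp2 (0.990, 0.988 and 0.988), and for Esrrb Dgat2, Lynx1 and Fv1 (0.992, 0.989 and 0.989). Esrrg and Ppargc1b shared Fam13a among their nearest 3 (0.983 and 0.971), and had r = 0.938 with each other. Ppargc1a was nearest to Tbc1d4, Tbx5 and Ppp1r3a (0.969, 0.966 and 0.965). For Rxra the nearest was Stom (0.972), and for Ppard it was Slc44a2 (0.937), the lowest of the 10 highest values. Among the 10 themselves r ran from 0.148 for Ppard with Esrrg to 0.981 for Thra with Perm1. On the deposited scale adult minus P1 was −0.10 for Thra and 2.36 for Perm1. The part of the centring in these r values was not tested.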

How the data were processed

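Total RNA extracted with TRIzol was made into libraries with an Illumina kit, per the labels' protocols. The authors deposited 1 table of RPKM values, made with HISAT2, Partek 6.6 and the build mm10, per the submitters' processing notes; neither notes nor labels give the annotation or the counting strand. Every value in it is above 0.1. Relative depth came from the steps between RPKM values, which gave whole reads for 87.3% of genes (tolerance 3e-05, with 1 step taken as 1 read); the libraries then held 1252320 to 5834539 reads over those genes.

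Genes with at least 1 RPKM in at least 4 of 15 libraries were fitted as log2(RPKM + 0.5) with limma 3.58.1 (R 4.3.3; 1 coefficient per stage, trended variance), which was tested on simulated data. The pseudocount makes differences of low genes too small. Ratios were compared by exact two-sided permutation over libraries. Named are the 10 genes, ratio partners, cell markers, the 3 called genes of each list with the largest differences, or some of them, and the 3 most alike genes. The 10 genes and all lists were chosen with earlier results of these data known. Alternatives were other pseudocounts, filters, scalings, library sets, a replicate block and leaving out each library. Some genes of the lists are counted but not reported here by name.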

Additional observations from a re-analysis of the deposited data

Results flagged for a closer look

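In 9 of the 54 groups examined, 1 library lay far from the others of its stage by Dixon's gap criterion at the 95% level, which chance meets in about 1 in 20 groups. That rate is for separate groups of normally distributed values, whereas these groups share libraries and genes. Of the P3 libraries, replicate 1 stood above replicates 2 to 4 for Ppara (1.17 RPKM, against 0.298 to 0.337), Ppargc1b (3.30 RPKM, against 0.477 to 0.800) and Perm1 (8.29 RPKM, against 1.15 to 1.51). Its ratio of Ppara to Ppard was 0.276, against 0.0426 to 0.0518. The cardiomyocyte marker sum was 5097 RPKM in that library, against 591 to 1120 in the others; its part in these gaps was not tested. P3 replicate 2 had a ratio of Thra to Thrb of 51.9, against 16.1 to 19.5. Thrb was 0.113 RPKM in that library, close to the 0.1 RPKM that every value in the table exceeds.

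Of the P1 libraries, replicate 1 was low for Thra, at 7.47 RPKM, against 10.01 to 10.2. Of the adult libraries, replicate 7 was high for Ppargc1a, at 30.8 RPKM, against 4.23 to 14.3. Adult replicate 4 was low for the ratio of Ppara to Ppard, at 0.452, against 1.36 to 2.45, and high for the ratio of Esrra to Esrrg, at 17.6, against 3.48 to 6.36; it also had the highest endothelial marker sum of the adult libraries, 219 RPKM.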

How the results depend on the processing

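The adult calls of Ppara and Perm1 against P1 and P3 held under every alternative run, as did that of Esrrb against P3. Esrrb against P1 was 0.84 with a pseudocount of 1 and 0.68 with adult replicates 1 to 4, alone or with the block, and was not called. Esrrb passed the filter through the adult group, so its calls are given as a description. Values that changed are given here, and the cause was not tested. Against P1, quantile normalization called 1683 genes higher and 1669 lower with 6 of the 10 higher, median-of-ratios scaling 1856 and 1562 with 7, and centring on the library median, chosen after seeing the data, 2047 and 1270 with 7. An equal sum of RPKM called 857 and 3868, and 1148 and 2908 without the 100 highest genes. Against P3 quantile normalization called 2165 and 2376, median of ratios 2335 and 2141, centring 2556 and 1779, and an equal sum without the 100 highest genes 1610 and 3619, each with 8 of the 10 higher. Adult minus P1 turned positive, in the order quantile, median of ratios and centred, for Ppard (0.97, 0.88 and 1.00), Esrra (0.81, 1.11 and 1.05), Esrrg (0.45, 0.44 and 0.49), Rxra (1.25, 1.20 and 1.28), Thra (1.26, 1.36 and 1.36) and Ppargc1b (0.51, 0.41 and 0.63). Adult minus P3 did so for Ppard (0.60, 0.52 and 0.63) and Rxra (0.83, 0.79 and 0.86). With an equal sum, and with it without the 100 highest genes, adult minus P1 was positive for Ppard (0.14 and 0.41), Esrra (0.28 and 0.59), Rxra (0.45 and 0.72) and Thra (0.56 and 0.86), and without those genes adult minus P3 was 0.21 for Rxra. P3 against P1 had 247 genes higher with an equal sum and 81 with median of ratios.

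With a pseudocount of 0.1, 1 of the 10 was lower against P1 and 1 against P3, beside 6267 and 6138 genes in all. With adult replicates 1 to 4 only, 2 were lower against P1, beside 6240 genes in all. Against P3, 3 were higher and 1 lower, beside 780 and 6131, and Ppargc1a was −0.36 against P1. The ratio differences then missed the threshold for Ppara to Ppard (2.35), Ppargc1a to Ppargc1b (1.13 against P1 and 0.95 against P3) and Rxra to Rxrb (0.52). With adult replicates 5 to 7 only, adult minus P1 was 0.025 for Ppard, 0.15 for Rxra and 0.11 for Thra, Ppara to Ppard was 2.45 and Ppargc1a to Ppargc1b 1.4998, both missing the threshold, Ppara relative to the cardiomyocyte markers was 0.024 against P3, and Esrra to Esrrg was −1.06 against P3 and passed it. Without replicate 1 of both P1 and P3, chosen after seeing the data, P3 against P1 had 499 genes higher and 1090 lower with 6 of the 10 lower. Of the 10, 2 were then lower in adult against P1 and 1 against P3, beside 5983 and 5800 genes in all. Fitting only P1 and P3 left 86 genes and 1 of the 10 lower. A pseudocount of 0.5 in ratios of P3 against P1 gave −0.58 for Esrra to Esrrb, −0.076 for Ppargc1a to Ppargc1b, 0.41 for Rxra to Rxrb (not past the threshold) and −0.64 for Thra to Thrb (past it).

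The deviations of same-numbered libraries had correlations of −0.506 to 0.371. Without values for differently numbered libraries beside them, these cannot show whether the numbers pair the libraries. With the replicate block and adult replicates 1 to 4, P3 against P1 had 73 genes higher, 110 lower and 1 of the 10 lower. In adult libraries 2 of the 10 were then lower against P1, beside 6248 genes in all. Against P3, 3 were higher and 1 lower, beside 777 and 6136, and Ppargc1a was −0.36 against P1.

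Leaving out 1 library gave 0 to 2 of the 10 lower against P1 and 0 to 1 against P3, beside 5718 to 6027 and 5779 to 5987 genes in all. P3 against P1 had 15 to 300 genes higher, 60 to 889 lower and 1 to 6 of the 10 lower. Ppargc1a against P1 was −0.024 to 0.44. Relative to the cardiomyocyte markers, Ppara against P3 was −0.31 to 0.0039 and Esrrb against P1 −0.044 to 0.67. The ratio difference was −0.91 to −0.52 for Esrra to Esrrg against P3, 0.87 to 1.55 for Ppargc1a to Ppargc1b against P1 and −0.23 to 0.44 in P3 against P1, and 0.32 to 0.52 for Rxra to Rxrb in P3 against P1. The 6 to 46 reads of Esrrb in P3 libraries limit its value there, and the 4 libraries per neonatal stage limit every comparison.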
